A study of Mus musculus with 4 samples.

Results

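Late neutrophil granule and S100 genes are a set of 10 mouse genes, Ltf, Ngp, Camp, Lcn2, S100a8, S100a9, Cd177, Retnlg, Chil3 and Cxcr2, that are used as marks of the later steps of neutrophil maturation. Every probe that the platform annotation listed under one of these symbols was taken, which gave 15 of the 26512 probes on the array. Chil3 had 3 probes, 1 of them listed under the older symbol Chi3l3. Ltf, Cd177 and Cxcr2 had 2 probes each and the other 6 genes had 1. Of the 15 probes, 14 were detected on all 4 arrays, and a second Cxcr2 probe was detected on none, so each gene was read by at least 1 probe.

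The study compared wild-type (WT) lineage-negative mouse bone marrow cells, that is, marrow depleted of cells bearing markers of mature blood lineages, after 48 h of signalling by FLT3-ITD with the same kind of cells carrying the empty vector pMIG. FLT3-ITD is a constantly active form of the kinase FLT3, with a duplicated internal stretch, that occurs in some acute myeloid leukaemias, and pMIG is a retroviral vector that also encodes green fluorescent protein. There were 2 arrays per group, and all 4 samples were labelled WT. The labels used here do not give the age of the mice, the antibodies of the depletion, or the source of the replicates (separate mice, separate cultures or neither), so a p-value here reflects the spread between these arrays alone, part of which may be technical.

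Neutrophils fill their granules in sequence as they mature. Primary granules, with myeloperoxidase and the serine proteases, form in promyelocytes. Secondary granules, with lactoferrin, cathelicidin and lipocalin, form in myelocytes and metamyelocytes under the transcription factor C/EBPε. Surface receptors such as CXCR2 and the last granule types appear in the most mature cells. Mature neutrophils are normally removed by lineage depletion, while the precursors that make secondary granules can remain.

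Between 13646 and 14176 probes were detected on each array, and 14178 probes detected on at least 2 arrays were compared together. Of the 13 stem and progenitor genes of a marker list that had a probe, 11 were detected, among them Cd34. No probe was listed for Kit. The Flt3 probe read 96.1 to 97.3 in raw intensity in both groups and was detected on no array, so it gives no check of the introduced FLT3-ITD. Of 14 lymphoid genes with a probe, 7 were detected on at least 2 arrays and 7 were not, among them the T cell genes Cd3e, Cd3g, Cd4 and Cd8a and the B cell gene Pax5. The precursor B cell genes Vpreb1 and Vpreb3 and the NK cell gene Klrd1 were detected on all 4 arrays and read higher in FLT3-ITD, as given with the other cell markers. Other NK cell genes did not follow Klrd1. Gzmb and Ncr1 were among the 7 not detected, Klrb1c differed by -0.02 and Nkg7 by -0.47. In a bulk sample, fewer cells of a type and less RNA per cell cannot be told apart. Brightness differs between probes for reasons of probe design, so levels below are compared between arrays and not between probes.

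The 10 genes read in both directions. Cxcr2, Cd177, Retnlg, Lcn2, S100a8, S100a9 and the dimmer Ltf probe read higher on both FLT3-ITD arrays than on both pMIG arrays. Camp and 2 of the 3 Chil3 probes read lower on both. Ngp, the brighter Ltf probe and the third Chil3 probe overlapped between groups. In limma with 1 prior variance for all probes and Benjamini-Hochberg adjustment over all 14178, 0 of the 14 detected member probes passed an adjusted p of 0.05, where 0.106% of all probes passed. At an unadjusted p under 0.05 there were 7 of 14, against 16.7% of all probes. When limma let the variance follow the mean signal, a variance trend, 9 of 14 passed, 6 higher and 3 lower, where 7.92% of all probes passed, 4.1% higher and 3.82% lower. Those 9 probes came from 7 of the 10 genes, and the 3 lower were Camp and 2 Chil3 probes. Probes of the same gene are not independent readings. In the first fit without background correction 7 of 14 passed, 5 higher and 2 lower, against 6.79% of all probes, 3.72% higher and 3.08% lower. For each member the adjusted p of the first fit stands beside that of the trend, and of the genes of other lists named below, Stfa2, Stfa1 and Il1b passed the first fit. Differences are log2 values, FLT3-ITD minus pMIG, and an exact permutation test of 2 arrays against 2 cannot go below p = 0.333.

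The groups did not overlap for 11 of the 14 probes, 8 higher and 3 lower. Over all probes 49.4% were apart in this way, 23.8% higher and 25.6% lower. The median difference of the 14 was 0.15 and that of all probes -0.01, while the median size of the difference without its sign was 0.31 and 0.19. Most members read in the bright part of the array, where the spread between replicates is small. Of the 11 member probes with a mean log2 signal of 10 or more, 6 passed with the variance trend, against 17.7% of all 1903 probes that bright. The groups were apart for 8 of these 11, against 61% of the bright probes, and the median sizes of the difference were 0.28 and 0.12.

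**Figure D1:**
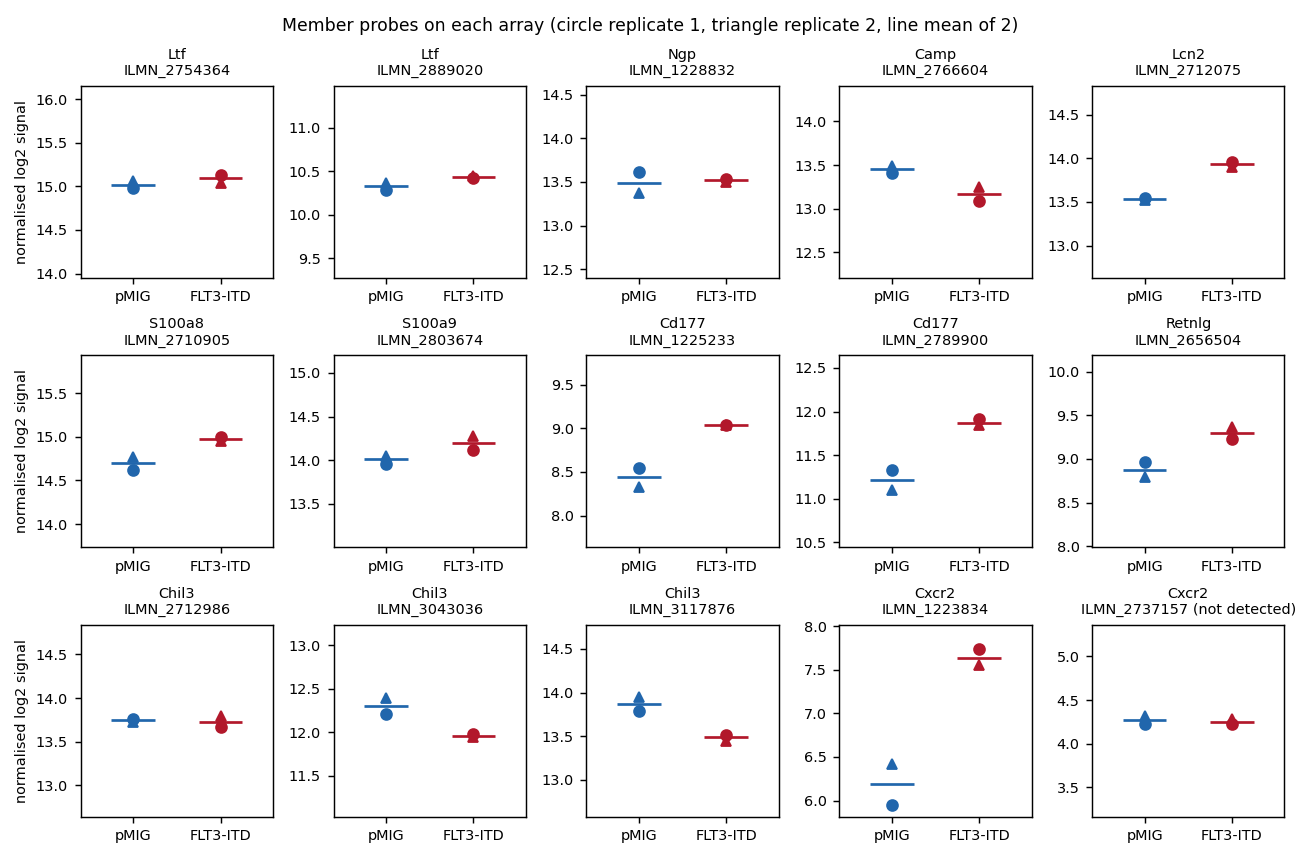
Normalised log2 signal of each of the 15 member probes (vertical axis, the same span in every panel) on the pMIG arrays (blue) and FLT3-ITD arrays (red), with circles for replicate 1, triangles for replicate 2 and lines for the mean of 2. The detected Cxcr2 probe and both Cd177 probes show the widest gaps between groups, and Camp and 2 of 3 Chil3 probes lie lower on the FLT3-ITD arrays.

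Promoter windows of the members are shown because secondary granule genes are known targets of C/EBPε and PU.1, and because members of this set read in opposite directions. RefSeq windows of 300 bases (GRCm38.p6, from 250 bases before to 50 after the start site) were matched for all 10 genes by symbol. Each was searched on both strands for TTGCNNAA (C/EBP), TATAAA (the core of a TATA box) and a fixed, narrow form of the NF-κB consensus, with 10 letters. The ETS search used GAGGAA, a longer form of the GGAA core that PU.1 and other ETS factors bind. C/EBP letters were found in 5 of 10 windows, those of Ltf, Ngp, Lcn2, S100a9 and Retnlg, against 10.8% of all 32851 windows. ETS letters were found in 5 of 10 (28.3% of all), TATA box letters in 4 of 10 (13.6%) and NF-κB letters in 0 of 10 (0.411%). The NF-κB form is so rare over all windows that 0 of 10 says little about the members, and other forms were not searched. In the S100a8 window an ETS and a TATA box match lie side by side. Lcn2 and Cxcr2 read higher, Ngp overlapped between groups, Camp read lower, and Chil3 read lower on 2 of its 3 probes. The windows of these genes follow 5′ to 3′ on the gene's strand, with matches to any of the 4 motifs in capitals.
Lcn2, chr2:32387690-32387989, minus strand: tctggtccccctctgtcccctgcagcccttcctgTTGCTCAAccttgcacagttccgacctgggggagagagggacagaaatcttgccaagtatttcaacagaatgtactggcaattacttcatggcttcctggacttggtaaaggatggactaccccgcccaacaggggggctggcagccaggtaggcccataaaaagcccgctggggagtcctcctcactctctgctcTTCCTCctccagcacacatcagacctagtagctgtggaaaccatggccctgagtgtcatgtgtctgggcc
Cxcr2, chr1:74153744-74154043, plus strand: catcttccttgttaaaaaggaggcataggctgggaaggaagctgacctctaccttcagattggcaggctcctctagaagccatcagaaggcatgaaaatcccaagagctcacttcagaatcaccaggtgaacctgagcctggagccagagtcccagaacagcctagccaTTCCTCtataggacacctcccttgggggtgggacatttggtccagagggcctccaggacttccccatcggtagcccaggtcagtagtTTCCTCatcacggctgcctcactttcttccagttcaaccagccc
Ngp, chr9:110419558-110419857, plus strand: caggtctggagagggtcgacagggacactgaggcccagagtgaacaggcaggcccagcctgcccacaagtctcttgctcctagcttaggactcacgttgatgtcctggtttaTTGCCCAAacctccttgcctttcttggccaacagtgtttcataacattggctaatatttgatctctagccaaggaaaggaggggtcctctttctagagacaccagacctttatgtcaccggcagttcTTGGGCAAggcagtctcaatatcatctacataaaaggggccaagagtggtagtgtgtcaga
Camp, chr9:109849407-109849706, minus strand: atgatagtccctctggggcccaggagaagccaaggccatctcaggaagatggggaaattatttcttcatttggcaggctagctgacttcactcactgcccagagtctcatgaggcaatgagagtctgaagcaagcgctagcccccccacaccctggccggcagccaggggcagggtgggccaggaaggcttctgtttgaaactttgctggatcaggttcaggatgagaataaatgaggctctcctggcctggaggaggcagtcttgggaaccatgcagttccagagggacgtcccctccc
Chil3, chr3:106167515-106167814, minus strand: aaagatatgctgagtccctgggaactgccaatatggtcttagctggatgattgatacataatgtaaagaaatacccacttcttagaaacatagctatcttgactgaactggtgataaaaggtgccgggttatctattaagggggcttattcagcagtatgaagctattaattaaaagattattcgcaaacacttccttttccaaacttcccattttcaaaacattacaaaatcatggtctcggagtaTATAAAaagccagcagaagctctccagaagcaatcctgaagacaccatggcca
The capitals mark 1 C/EBP and 1 ETS match for Lcn2, 2 ETS matches for Cxcr2, 2 C/EBP matches for Ngp, no match for Camp and 1 TATA box match for Chil3. A match describes letters in this window and does not show a bound site.

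The secondary granule proteins come first in order of synthesis. Ltf encodes lactoferrin, an iron-binding protein of the secondary granule. Its brighter probe, ILMN_2754364, had raw intensities of 36363.6 and 36042.7 with FLT3-ITD against 31952.8 and 32412.5 with pMIG. Normalised, these became 15.13 and 15.04 against 14.98 and 15.06, and the groups overlapped. The raw readings were among the 7 brightest of each array, where quantile normalization sets a value by its rank alone. The normalised difference was 0.07 (SE 0.12, adjusted p = 0.81), and it was 0.19 when arrays were scaled to a common median only. The second Ltf probe, ILMN_2889020, read 10.42 and 10.45 against 10.29 and 10.36, a difference of 0.11 (SE 0.11, adjusted p = 0.685). Neither Ltf probe passed either fit, and the 95% intervals of the first fit ran from -0.24 to 0.38 and from -0.19 to 0.41.

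Ngp encodes neutrophilic granule protein, a secreted relative of the cathelicidins and cystatins. It read 13.53 and 13.50 with FLT3-ITD against 13.61 and 13.37 with pMIG, so both FLT3-ITD arrays lay between the 2 pMIG arrays. The difference was 0.03 (SE 0.14, adjusted p = 0.936, 95% interval -0.33 to 0.39), and with median scaling it was -0.04. Neither fit called Ngp, whose promoter window holds 2 C/EBP matches.

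Camp encodes the cathelicidin CRAMP, an antimicrobial peptide precursor of the same granule. Its raw intensities were 8432.9 and 9799.1 with FLT3-ITD against 11928.3 and 11194.5 with pMIG. The normalised values were 13.09 and 13.25 against 13.41 and 13.49, with both FLT3-ITD arrays below both pMIG arrays. The difference was -0.28, or 1.21-fold lower, with an adjusted p of 0.351 in the first limma fit and 0.0232 with the variance trend. Camp no longer passed with the trend when FLT3-ITD replicate 1 (adjusted p = 0.205) or pMIG replicate 2 (adjusted p = 0.109) was left out. In the reference gene table Camp, Ngp and Ltf lie on chromosome 9, with 8 protein-coding genes between Camp and Ngp and 20 between Ngp and Ltf.

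Lcn2 encodes lipocalin 2, which binds the iron carriers of bacteria. Its raw intensities were 15139.7 and 15948.7 with FLT3-ITD against 13403.7 and 11456.5 with pMIG. After normalization these were 13.96 and 13.90 against 13.55 and 13.52, a gap wider than the spread within either group. The difference was 0.40, or 1.32-fold (SE 0.11, 95% interval 0.10 to 0.70, adjusted p = 0.219 in the first limma fit). Lcn2 passed with the variance trend (adjusted p = 0.000857), and it still passed with that trend when any of the 4 arrays was left out, with differences of 0.38 to 0.42. It also passed the first fit when no background was subtracted (adjusted p = 0.0134). Of the genes with C/EBP letters in their windows, Lcn2 and Retnlg passed with the trend and Ltf, Ngp and S100a9 did not. Camp, S100a8, Cd177, Chil3 and Cxcr2, without such letters, each had a probe that passed with it. Neither the differences between these genes nor any link to the letters was tested.

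S100a8 and S100a9 encode the subunits of calprotectin, a calcium- and zinc-binding complex that fills the neutrophil cytosol, and no other protein-coding gene lies between them on chromosome 3. S100a8 had raw intensities of 33691 and 33140.9 with FLT3-ITD against 26947 and 26196.9 with pMIG. The normalised values were 15.00 and 14.95 against 14.62 and 14.77, and the groups did not overlap. The difference was 0.28, or 1.21-fold (SE 0.12, adjusted p = 0.341), and it passed with the variance trend (adjusted p = 0.0209). It no longer passed when FLT3-ITD replicate 1 (adjusted p = 0.172) or pMIG replicate 1 (adjusted p = 0.0681) was left out. S100a9 read 14.12 and 14.28 against 13.96 and 14.05, also without overlap. Its difference of 0.19 passed neither fit (adjusted p = 0.507 and 0.131 in limma), with a 95% interval of -0.14 to 0.53. Actb, the β-actin gene that serves as a reference and also gives a bright signal, differed by 0.29 and passed with the variance trend as well (adjusted p = 0.305 in the first fit and 0.0124 with the trend), while Gapdh differed by 0.11 and did not pass. The part that Actb's shift and the S100a8 difference may have in common was not tested.

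Cd177 encodes a surface glycoprotein held in secondary granules, anchored to the membrane by a lipid. The probe ILMN_2789900 had raw intensities of 3702.4 and 3816.5 with FLT3-ITD against 2915.3 and 2140.6 with pMIG. Its normalised values were 11.91 and 11.84 against 11.33 and 11.10. The second probe, ILMN_1225233, read 9.04 and 9.04 against 8.54 and 8.33. On both probes the FLT3-ITD arrays lay close together and above both pMIG arrays. The differences were 0.66, or 1.58-fold (SE 0.14, adjusted p = 0.178), and 0.60, or 1.52-fold (SE 0.13, adjusted p = 0.183), so the 2 probes gave similar sizes. Both passed with the variance trend (adjusted p = 2.23e-05 and 0.00145), also with any 1 array left out. Cd177 ILMN_2789900 had a larger difference, up or down, than all but 4.98% of the detected probes.

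Retnlg encodes resistin-like molecule gamma, a small secreted protein of mouse neutrophils. Its raw intensities were 646.1 and 771.1 with FLT3-ITD against 638.1 and 491.5 with pMIG, and the normalised values were 9.23 and 9.37 against 8.96 and 8.79. The groups did not overlap, although FLT3-ITD replicate 1 and pMIG replicate 1 had nearly equal raw readings. The difference was 0.43, or 1.34-fold (SE 0.13, adjusted p = 0.242), and it passed with the variance trend (adjusted p = 0.0132). This call held in 1 of the 4 fits with an array left out, that without pMIG replicate 1. Without FLT3-ITD replicate 1, FLT3-ITD replicate 2 or pMIG replicate 2 the adjusted p was 0.0572, 0.172 and 0.108. Of its relatives, Retnla differed by -0.36 without passing either fit, and Retn and Retnlb were not detected.

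Chil3 encodes Ym1, a chitinase-like lectin that mouse neutrophil precursors and some macrophages make in large amounts. The probe ILMN_3117876 had raw intensities of 11188 and 11396.9 with FLT3-ITD against 15591.3 and 15255.2 with pMIG. Its normalised values were 13.52 and 13.45 against 13.79 and 13.95. The probe ILMN_3043036 read 11.98 and 11.95 against 12.21 and 12.39. Both probes were lower on both FLT3-ITD arrays, with differences of -0.38, or 1.3-fold lower (adjusted p = 0.254), and -0.34, or 1.26-fold lower (adjusted p = 0.296), and both passed with the variance trend (adjusted p = 0.0023 and 0.00801). With any 1 array left out the first kept its call under the trend, while ILMN_3043036 lost it without FLT3-ITD replicate 1, FLT3-ITD replicate 2 or pMIG replicate 2 (adjusted p = 0.0525, 0.0727 and 0.102).

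The third Chil3 probe, ILMN_2712986, listed as Chi3l3 with the same transcript accession, overlapped between the groups. It read 13.67 and 13.80 with FLT3-ITD against 13.76 and 13.73 with pMIG, a difference of -0.01 (SE 0.12, 95% interval -0.33 to 0.30, adjusted p = 0.966). Chil3 is therefore reported with its probes in disagreement. Chil4, which encodes the closely related Ym2, had a probe of its own that read 105 to 112.3 in raw intensity, near background, and differed by -0.11. Whether any Chil3 probe also reads Chil4 transcripts was not tested.

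Cxcr2 encodes a chemokine receptor that draws mature neutrophils out of the marrow towards ligands such as CXCL1 and CXCL2. Its probe ILMN_1223834 had raw intensities of 278.4 and 273.9 with FLT3-ITD against 150.5 and 159.4 with pMIG, against an estimated background of 94.7 to 97.9. The normalised values were 7.74 and 7.55 against 5.95 and 6.42. This was the widest gap among the members, and only 0.289% of detected probes had a larger difference in either direction. The difference was 1.46, or 2.74-fold (SE 0.20, 95% interval 0.93 to 1.98), with an adjusted p of 0.12 in the first limma fit and 5.21e-05 with the variance trend. It passed with the trend when any 1 array was left out, with differences of 1.22 to 1.70. The size rests on the background step, since without it the difference was 0.87, still past the threshold (adjusted p = 5.12e-05). With the first fit's single prior, Cxcr2 and both Cd177 probes passed at an offset of 50 (Cxcr2 adjusted p = 0.00354), where 2.88% of all probes did, and Cxcr2 alone of the members passed with median scaling (adjusted p = 0.0205), where 0.684% did. The second probe, ILMN_2737157, read 91.8 and 96.7 against 95.2 and 96.4 in raw intensity and was not detected on any array, so it gives no second reading of Cxcr2.

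**Figure D2:**
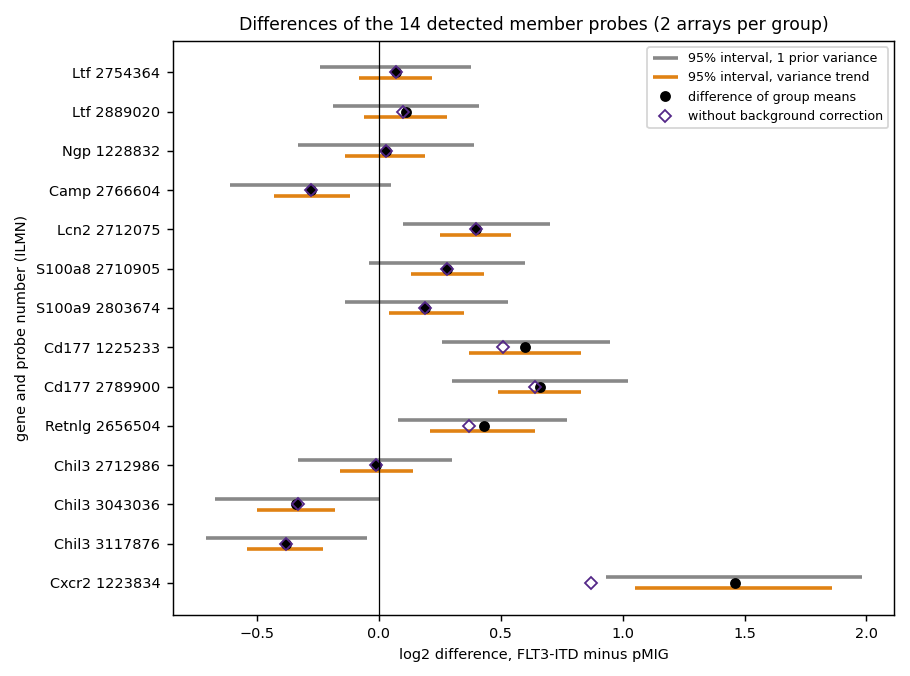
Log2 difference, FLT3-ITD minus pMIG (horizontal axis), of the 14 detected member probes (vertical axis, gene and probe number), with 95% intervals from limma with 1 prior variance (grey) and with a variance trend (orange). Diamonds give the difference without background correction, which lies well below the main value for Cxcr2 (0.87 against 1.46) and close to it for the bright probes.

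Among the genes whose profile over the 4 arrays was nearest to a member's, measured as Euclidean distance between log2 values centred on their own mean, were Wiz, Arl2bp and Adpgk for S100a8 (distances 0.011, 0.016 and 0.016). For Cxcr2 they were Itgae, Ckb and Cd86 (distances 0.118, 0.154 and 0.164), with differences of 1.42, 1.43 and 1.46. With 4 arrays and 14178 probes such near matches are a description only.

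**Figure D3:**
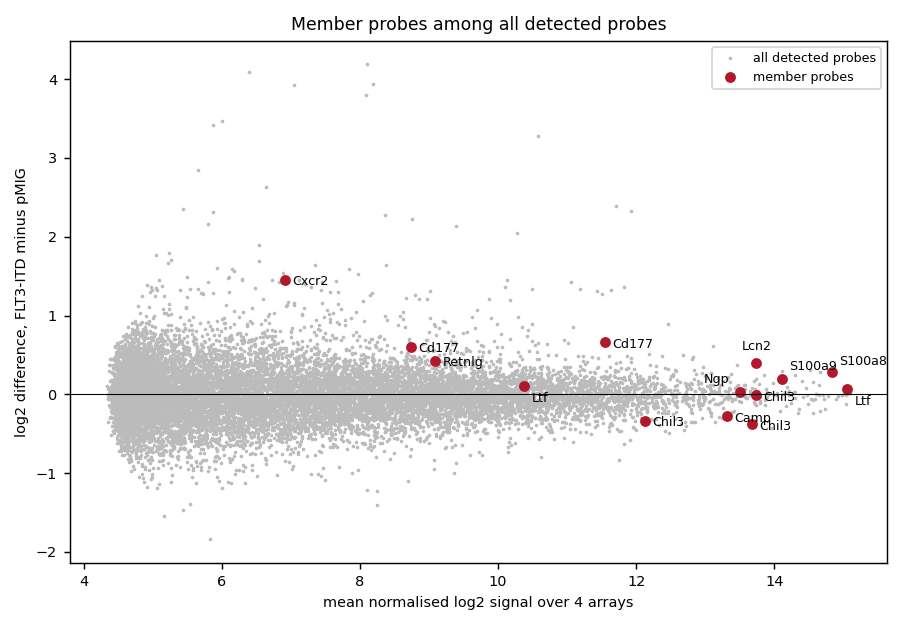
Log2 difference, FLT3-ITD minus pMIG (vertical axis), against mean normalised log2 signal over 4 arrays (horizontal axis) for all 14178 detected probes (grey) and the 14 member probes (red, labelled by gene). Cxcr2 and both Cd177 probes lie above most probes of like signal, and Camp and 2 Chil3 probes below the centre line.

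Other neutrophil genes were compared from lists, whose counts describe these arrays. Of 39 detected late neutrophil genes outside the set (granule, secretory and surface genes), 2 passed the first limma fit, both higher, and with the variance trend 11 were higher and 1 lower, with a median difference of 0.20. The 2 were Stfa2, with a difference of 3.28, or 9.69-fold (adjusted p = 0.00908), and Stfa1, with 2.39, or 5.23-fold (adjusted p = 0.0124). Over the 39 genes the groups were apart upward for 22 and downward for 5. Among all probes 4.1% were higher and 3.82% lower with the trend, and the groups were apart upward for 23.8% and downward for 25.6%. Mmp9, the gelatinase of the tertiary granule, read 9.67 and 9.71 against 8.73 and 8.80, a difference of 0.92 that passed with the trend (adjusted p = 0.096 in the first fit and 2.42e-06 with the trend). Ifitm6 differed by 1.20 (adjusted p = 0.0833, and 2.37e-08 with the trend). Trem1, a receptor that amplifies inflammatory signals, differed by 1.16, or 0.72 without background correction (adjusted p = 0.0841, and 0.000179 with the trend). Mmp8, the collagenase of the secondary granule, was near background and differed by 0.56, or 0.17 without background correction, without passing. Itgam, the CD11b integrin chain, differed by 0.25 (0.15 without background correction) and Csf3r, the receptor for granulocyte colony-stimulating factor, by -0.01, and neither passed.

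Primary granule and promyelocyte genes read lower more often than higher. Of 16 detected, 0 passed the first limma fit and 8 passed with the variance trend, all 8 lower, with a median difference of -0.26. The groups were apart downward for 11 and upward for 1. Among all probes 3.82% were lower with the trend and 25.6% were apart downward. Of all probes with a mean log2 signal of 10 or more, 17.7% passed with the trend and 61% were apart, in either direction. Mpo, the gene of myeloperoxidase, read 13.76 and 13.72 with FLT3-ITD against 14.26 and 14.08 with pMIG, a difference of -0.43 (adjusted p = 0.231, and 0.000869 with the trend). The granule protease genes Ctsg, Prtn3 and Elane differed by -0.33, -0.30 and -0.24 and passed with the trend (limma adjusted p = 0.00569, 0.0104 and 0.0488, against 0.282, 0.305 and 0.395 in the first fit). The progenitor gene Ms4a3 differed by -0.39 (adjusted p = 0.252, and 0.00234 with the trend) and the granule gene Nkg7 by -0.47 (adjusted p = 0.223, and 0.000847 with the trend). In summed normalised signal, the detected genes of this list reached 90497 and 91580 with FLT3-ITD against 112379 and 109765 with pMIG, while the late neutrophil genes reached 85807 and 88231 against 70486 and 68865. Stfa1 and Stfa2 made up much of that gap, and the other 37 late neutrophil genes summed to 73673 and 75579 against 68531 and 66920. The difference between the lists was not tested.

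Most transcription factor genes of the neutrophil line passed neither fit. Cebpe, which encodes C/EBPε, read 10.82 and 10.62 with FLT3-ITD against 10.73 and 10.53 with pMIG, with overlapping groups and a difference of 0.09 (SE 0.14, adjusted p = 0.793). Of the 15 detected, 1 was higher and 1 lower with the variance trend and 0 passed the first limma fit. Among all probes 4.1% were higher and 3.82% lower with the trend, so most probes likewise passed neither fit. Id2, an inhibitor of helix-loop-helix factors, differed by 0.61 (adjusted p = 0.163, and 0.00423 with the trend), and Gfi1, a repressor needed for neutrophil development, by -0.55 (adjusted p = 0.202, and 0.000308 with the trend). Spi1, which encodes PU.1, differed by 0.22 (0.14 without background correction) and Cebpa by 0.08, and neither passed.

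Of the 10 other detected genes on the S100 list, 3 were higher and 0 lower with the variance trend, with a median difference of 0.27. In the first limma fit 0 passed. The list includes S100pbp, which encodes a binding partner of an S100 protein and differed by 0.02. Among all probes 4.1% were higher and 3.82% lower with the trend. S100a6 differed by 0.48 (adjusted p = 0.196, and 0.000296 with the trend) and S100a10 by 0.39 (adjusted p = 0.251, and 0.0327 with the trend). S100a5, near background at 106.6 to 134.2 in raw intensity, differed by 0.70, or 0.23 without background correction, and S100a1 by -0.30, and neither passed. Among ligands, receptors and partners of the members, 19 genes were detected, 1 passed the first fit, Il1b, and 7 were higher and 1 lower with the trend, with a median of 0.43. Il1b differed by 2.27, or 4.83-fold (adjusted p = 0.0139 in the first fit), and by 1.8 without background correction. Cxcl2, a CXCR2 ligand, read 7.19 and 7.12 with FLT3-ITD against 6.05 and 5.55 with pMIG, a difference of 1.35 (0.70 without background correction) that passed with the trend (adjusted p = 0.128 in the first fit and 0.000412 with the trend). Cxcr1, the receptor most like Cxcr2, was above detection on both FLT3-ITD arrays and 1 pMIG array. It read 7.04 and 7.02 against 4.31 and 5.13. Its difference of 2.31, or 1.00 without background correction, passed with the trend (adjusted p = 1.17e-05) and had an adjusted p of 0.101 in the first fit. Csf3, the gene of granulocyte colony-stimulating factor, was not detected on either pMIG array. It read 109.2 and 123.1 against 98.7 and 98.8 in raw intensity, near background in both groups, and passed neither fit (adjusted p = 0.183 and 0.0967).

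**Figure D4:**
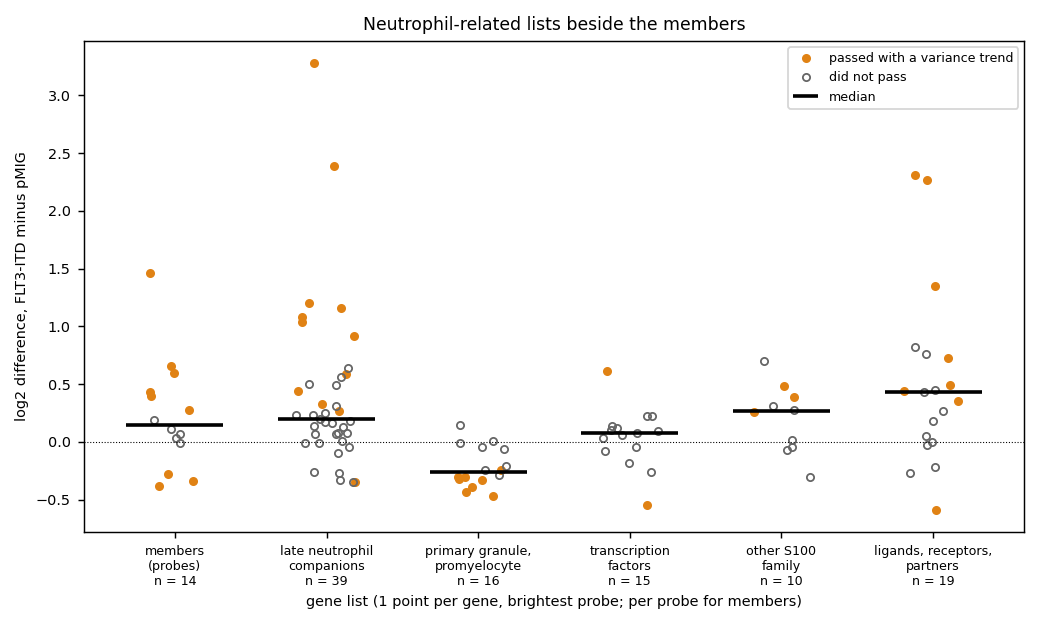
Log2 difference, FLT3-ITD minus pMIG (vertical axis), of the 14 member probes and of the detected genes in 5 neutrophil-related lists (horizontal axis, with n), 1 point per probe or gene, filled where the gene passed with the variance trend, with the median as a bar. The members spread to both sides of 0 around a median of 0.15, the late neutrophil genes lie mostly above 0 (median 0.20) and the primary granule genes mostly below it (median -0.26).

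Markers of other cells moved between the same groups, and their counts stand beside 4.1% of all probes higher and 3.82% lower with the variance trend. With the variance trend, dendritic cell and MHC class II genes were higher in 7 of 13 and lower in 0 (summed signal 15746 to 16062 in FLT3-ITD and 7436 to 7839 in pMIG), with Flt3, Xcr1 and Clec9a not detected. The 7 were the class II pathway genes H2-Aa, H2-Ab1, H2-Eb1, Cd74 and Ciita, and also Itgae and Irf4. Siglech, Bst2, Ccr7, Batf3, Zbtb46 and Tcf4 did not pass. Cd74 and H2-Ab1 were the brightest of the list and weigh most in its sum. Eosinophil, basophil and mast cell genes were lower in 7 of 13 and higher in 0 (7800 to 7932 against 11421 to 11754), with Il5ra, Ccr3 and Siglecf not detected. Monocyte and macrophage genes, some of which mature neutrophils share, were higher in 4 of 16 and lower in 1 (28431 to 29319 against 28508 to 28742), with Ccr2, Msr1 and Ms4a6c not detected. Lymphoid genes were higher in 4 of 7 and lower in 1 (4494 to 4616 against 4577 to 5227). The 1 lower was Nkg7, also on the primary granule list, which read 11.49 and 11.54 against 11.87 and 12.1. It was the brightest of the 7 and weighs most in their sum. Among the higher lymphoid genes Vpreb1 differed by 0.96 (adjusted p = 0.0919, and 2.38e-06 with the trend), Vpreb3 by 1.64, or 1.09 without background correction (0.0566, and 8.69e-07), and Klrd1 by 1.89, or 1.01 without it (0.0555, and 3.9e-06). The part of these cells in the differences of the members was not tested.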

How the data were processed

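Biotin-labelled cRNA made from total RNA was read on Illumina bead arrays, per the labels' protocols. The authors deposited a non-normalized intensity per probe and array, with a detection p-value beside each intensity per the file headers. Neither the computation of that p-value nor any background handling by the scanner is described in the sources used here. A second deposited table holds log2 values whose making is not stated, used as an alternative (column medians 4.79 to 4.8). Its direction follows the named columns, and its scaling and any centring remain unknown.

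Background was removed by limma 3.58.1 (R 4.3.3) with its normexp model, whose moments were inferred through the detection p-values, and 16 was added as an offset. Values were then put on a log2 scale and quantile-normalized. Probes with a detection p under 0.05 on at least 2 of 4 arrays were kept, 14178 in all. Since every probe of a member was wanted, the fit was per probe: limma's linear model with empirical Bayes moderation, Benjamini-Hochberg adjustment over all probes kept, threshold 0.05. The steps were tested on simulated data. Gene names came from the platform annotation, with 1 symbol for 24279 probes, several for 0 and none for 2233, and 368 symbols were updated through the gene identifier or accession. For the lists, the brightest detected probe stood for a gene.

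Same-numbered arrays did not deviate together (correlation -0.015 across probes), so replicate numbers were not taken as pairs. The members and lists were chosen with earlier results of these data known. The plan for genes named outside the set was 12 fixed genes, up to 4 genes per list with the smallest adjusted p, and the 3 nearest profiles to S100a8 and Cxcr2. It was not followed throughout. Spi1 was named and Fli1 was not, though its adjusted p was smaller (0.405 against 0.46 in the first limma fit). Other genes, such as Retnla, Chil4, S100pbp, Klrb1c and the detected dendritic cell and MHC class II genes, were named outside it. With the variance trend the erythroid and megakaryocyte, stem and progenitor, and reference lists had 2, 0 and 1 genes higher and 4, 1 and 0 lower, of 13, 11 and 9 detected. The number of arrays limits the precision.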

Additional observations from a re-analysis of the deposited data

How the results depend on the processing

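Each setting changed 1 choice, except that the robust fit and some fits with an array left out also had the variance trend. The count of all probes past the threshold, 15, became 963 without background correction, 408 with an offset of 50, 97 with median scaling, 45 with the authors' deposited log2 values, 85 with detection on all 4 arrays, 43 with a detection p under 0.01, 30 with 1 row per gene, 1123 with a variance trend, 1183 with a trend and robust fit, and 7 in a fit that took the replicate number as a block. With any 1 array left out it was 0, in limma, with 1493 to 1810 at an unadjusted p under 0.05. Members called were 5 higher and 2 lower without background correction, 3 higher with an offset of 50, 1 higher with median scaling, and 6 higher and 3 lower with the trend, with or without a robust fit. In the other settings, apart from those with the trend and an array left out, the block included, the count was 0. Over 206 values of member probes under 15 alternatives, 174 kept direction and side of the threshold, 29 passed newly and 3 turned sign. Those were Ngp, at -0.04 with median scaling and between -0.09 and 0.13 with 1 array left out, negative without pMIG replicate 2, and Chil3 ILMN_2712986, between -0.08 and 0.05, positive without FLT3-ITD replicate 1. Among other genes named, Cebpe ranged from -0.01 to 0.19, negative without FLT3-ITD replicate 1, Cebpa from -0.03 to 0.19, negative without FLT3-ITD replicate 2, and Csf3r from -0.11 to 0.09, at 0.03 without FLT3-ITD replicate 2 and 0.09 without pMIG replicate 2. With the trend and 1 array left out, chosen after seeing the data, 492 and 541 probes passed without FLT3-ITD replicate 1 and 2 and 923 and 717 without pMIG replicate 1 and 2, with 4 to 5 member probes higher and 1 to 3 lower, and 5 member probes passed in all 4 such fits. The cause of these shifts was not tested. Dim probes such as Cxcr2 and Cxcr1 are limited by their signal over background.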
